A study of Mus musculus with 22 samples.

Results

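The BMP ligands, receptors and related genes described here are 10 gene symbols of the 24454 in the count table: the ligands *Bmp2*, *Bmp4* and *Bmp6*, the secreted BMP-binding protein *Bmper*, the type I receptors *Bmpr1a*, *Acvrl1* and *Acvr1*, the type II receptors *Bmpr2* and *Acvr2b*, and the co-receptor *Eng*. They were taken by name, and all 10 were found. The table covers 22 SMART-Seq2 libraries, and each was made from 25 cells of the aorta-gonad-mesonephros (AGM) region of untreated C57BL/6 mouse embryos, where blood stem and progenitor cells arise from endothelium by the endothelial-to-haematopoietic transition (EHT). All cells were VE-Cadherin-positive, and CD44 and Kit staining split them into CD44Neg (10 libraries, of which 4 came from E9.5 and 3 each from E10 and E11) and CD44LowKitNeg (6 libraries, 1, 2 and 3 of the same stages), both endothelial, and CD44LowKitPos (3 libraries: 1 at E9.5 and 2 at E10) and CD44High (3 libraries, all at E11), which lie further along EHT. The labels carry 1 date per stage, so stage and label date cannot be told apart. They do not say which libraries came from separate embryos, so p-values measure only the spread between these libraries.

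BMPs are secreted dimers of the TGF-beta superfamily that bring type I and type II serine/threonine kinase receptors together. The type II receptor activates the type I receptor, which phosphorylates SMAD proteins, and inhibitory SMADs and ID genes are among the usual targets. In the AGM, BMP4 is made below the floor of the aorta and takes part in blood stem cell formation, while ALK1, the product of *Acvrl1*, and endoglin carry BMP9 and BMP10 signals in endothelium.

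Library depth lay between 3912350 and 8657546 counted reads, so that 3 counts, the most that a count of 0 allows, correspond to 0.348 to 0.816 CPM (counts scaled to a common library size). That limit covers counting error only. Levels below are CPM on the TMM scale, in which the library size is corrected for composition, with the SD between libraries. A gene was called where the adjusted p of edgeR's quasi-likelihood test, Benjamini-Hochberg adjusted over all genes tested, was under 0.01. The labelled cell types were checked with markers. The summed level of 8 endothelial markers was 3519 to 5924 CPM in CD44Neg, 3723 to 8666 in CD44LowKitNeg and 766 to 1854 in CD44LowKitPos, but 14.3 to 78.8 CPM in CD44High, where *Cdh5*, the gene of VE-Cadherin, was at 0 in every library.

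The sequences just before 3 of the genes are shown because the populations differed in each of them and because the window lay outside the annotated gene. They are the 250 bases before the RefSeq start on GRCm38.p6, 5′ to 3′ on the gene's strand, for *Bmper* (chr9:23222826-23223075, plus strand), *Bmp4* (chr14:46390670-46390919, minus strand) and *Eng* (chr2:32646345-32646594, plus strand). Capitals mark the motifs searched on both strands.
Bmper: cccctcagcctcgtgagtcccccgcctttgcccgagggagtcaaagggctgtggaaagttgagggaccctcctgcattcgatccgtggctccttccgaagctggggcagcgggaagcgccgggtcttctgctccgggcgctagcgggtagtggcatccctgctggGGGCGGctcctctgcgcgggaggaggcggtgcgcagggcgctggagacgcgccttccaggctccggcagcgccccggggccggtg
Bmp4: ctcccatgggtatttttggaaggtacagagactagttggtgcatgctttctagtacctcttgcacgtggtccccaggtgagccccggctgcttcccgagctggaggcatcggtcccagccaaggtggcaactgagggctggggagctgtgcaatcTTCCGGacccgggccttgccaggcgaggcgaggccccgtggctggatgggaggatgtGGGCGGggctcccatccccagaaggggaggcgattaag
Eng: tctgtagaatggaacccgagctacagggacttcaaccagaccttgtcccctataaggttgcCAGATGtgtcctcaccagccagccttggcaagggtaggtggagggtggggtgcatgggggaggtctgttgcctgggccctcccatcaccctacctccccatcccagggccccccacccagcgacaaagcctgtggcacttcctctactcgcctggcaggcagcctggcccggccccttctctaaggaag
The motif of BMP-activated SMADs was searched as GGCGCC, which 9.59% of 32851 windows of this length held. For RBPJ, the Notch effector, it was TGGGAA, held by 21.6%. For GATA factors it was AGATAA, held by 9.99%, and for RUNX factors it was TGTGGT, held by 14%. None of these was found in the 3 windows shown, but the *Bmpr1a* and *Bmpr2* windows, which overlap the annotated gene and are not printed, each held the SMAD and the RBPJ motif once. The ETS motif CCGGAA, held by 12% of all windows, was found once in the *Bmp4* window. The E-box CAGATG, held by 14.4%, was found once in the *Eng* window. The GC box GGGCGG, held by 32.7%, was found once each in the *Bmper* and *Bmp4* windows. Hits were allowed to overlap. Promoter windows were matched for 8 of the 10 genes, all but *Bmp2* and *Acvrl1*.

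The first comparison asked how the CD44Low endothelium without Kit differed from CD44-negative endothelium. The CD44LowKitNeg libraries held less *Bmp4* and more *Bmper* and *Bmpr2* than the CD44Neg libraries. *Bmp4* fell from 64.2 ± 41.7 to 10.5 ± 7.74 CPM, *Bmper* rose from 1.51 ± 3.18 to 36.1 ± 19 CPM, and *Bmpr2* rose from 107 ± 48 to 277 ± 83.3 CPM (SD, n = 10 and 6). These were 3 of the 9 genes tested, against 10.2% of all 11022 genes tested in this comparison, and the median log2 fold change was 1.16 over the 9 genes and 0.01 over all genes. *Bmp2* did not pass the filter on low counts. Without CD44Neg replicate 6, which had the fewest genes detected of the 22 libraries and the lowest share of *Rn45s*, an rRNA precursor, 5 of the genes were called, with 1078 of all genes against 1121.

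**Figure D1:**
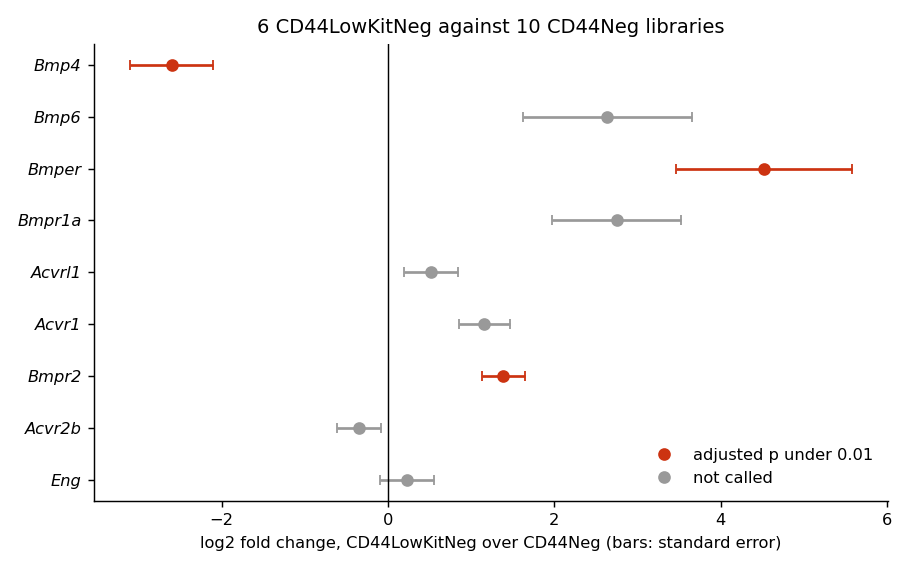
Log2 fold changes of the 9 tested genes in CD44LowKitNeg over CD44Neg (horizontal axis, log2 units), with standard errors as bars. *Bmper* is farthest to the right at 4.52 and *Bmp4* farthest to the left at -2.60, and red points were called at an adjusted p under 0.01.

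*Bmp4* was the most abundant of the 3 ligands in CD44Neg, both by CPM and per kilobase of exon (28.6 ± 18.5 CPM per kb, against 0.91 ± 1.16 for *Bmp6* and 0.59 ± 0.88 for *Bmp2*). The gene lies at chr14:46383520-46390669 (GRCm38). Its lowest, median and highest CD44Neg libraries were at 25.1, 43.4 and 145 CPM, and the CD44LowKitNeg libraries at 3.71, 7.55 and 24.1 CPM. Every CD44LowKitNeg library lay below every CD44Neg library, and the fitted difference was -2.60 ± 0.50 (log2 fold change ± SE, as below; adjusted p = 0.000944). It was called in 22 of 23 alternative fits and lost with all 22 libraries in the fit (adjusted p = 0.014). In CD44LowKitPos it was at 0, 1.33 and 5.43 CPM, and in CD44High at 8.51, 0.27 and 0 CPM. These levels overlapped each other, and both populations lay below every CD44Neg library. *Bmp4* was called against CD44Neg in CD44LowKitPos (log2 fold change -4.82 ± 1.14, adjusted p = 0.00916) and in CD44High (-4.39 ± 1.12, adjusted p = 0.00522). The first of these calls was lost without any 1 of 15 libraries, among them all 10 CD44Neg libraries, with adjusted p up to 0.0766 without CD44LowKitPos replicate 18, and by limma voom (0.0122) and with stage as a covariate (0.0193). The second was lost without CD44High replicate 21 (adjusted p = 0.0334) or replicate 22 (0.0259). Within E11 every CD44High library lay below every CD44LowKitNeg library in *Bmp4*, which edgeR did not call (-2.45 ± 0.92, adjusted p = 0.0557) and 3 of 28 alternative fits did: limma voom (0.00738), edgeR without the low-count filter (0.00768) and edgeR without CD44High replicate 20 (0.000196).

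Within CD44Neg the *Bmp4* levels were highest at E10, which was not tested against the other stages. By edgeR, E11 against E9.5 was not called (log2 fold change 0.39 ± 0.78, adjusted p = 0.964). The 3 libraries at E10 were at 94.1, 145 and 114 CPM, above the 4 at E9.5 (37.2, 26, 46.2 and 35 CPM) and the 3 at E11 (40.5, 79.2 and 25.1 CPM). At E10 the 2 CD44LowKitNeg libraries were at 5.20 and 5.95 CPM, and at E11 the 3 were at 24.1, 14.9 and 9.14 CPM. The populations were thus apart at both stages, but edgeR called neither difference within a stage (adjusted p = 0.0501 at E10 and 0.314 at E11). At E10 it was called in 3 of 28 alternative fits, which were DESeq2's Wald test (adjusted p = 0.000826), edgeR without the low-count filter (0.000657) and edgeR without CD44High replicate 20 (0.00863), which enters that fit through the shared estimate of spread. The change of the difference between the stages, 2.79 ± 1.32 on the log2 scale, was not called either (adjusted p = 0.537).

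*Bmp6* (chr13:38345107-38500302), a ligand that endothelial cells of other organs are known to secrete, had the opposite order. Its lowest, median and highest libraries were at 0, 1.45 and 11.9 CPM in CD44Neg and at 9.74, 17.6 and 50.8 CPM in CD44LowKitNeg. It was detected in 5 of 10 CD44Neg libraries and in 6 of 6 CD44LowKitNeg libraries, and the log2 difference of 2.64 ± 1.01 was not called by edgeR (adjusted p = 0.0719), though limma voom called it (0.00315). Of the CD44LowKitPos libraries 1 of 3 held any *Bmp6* (1.21 CPM, at E9.5), and all 3 CD44High libraries were at 0. The mean of CD44High was therefore at least 29.8-fold lower than that of CD44LowKitNeg, taking 3 counts per library as the floor. That difference was called within E11 (adjusted p = 0.00357) and, by edgeR, not over all stages (adjusted p = 0.0136), where DESeq2's Wald test (0.000117) and limma voom (0.000976) called it. At E11 all 3 CD44Neg libraries were at 0, so CD44LowKitNeg was at least 53.4-fold higher there, which edgeR did not call (adjusted p = 0.0121). It was called in 7 of 28 alternative fits: by DESeq2's Wald test (2.3e-05), by limma voom (2.4e-05), without the low-count filter (0.000233), with only the groups compared (0.00276), and without CD44Neg replicate 6 (0.00438) or 9 (0.0057) or CD44High replicate 22 (0.0096).

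*Bmp2* (chr2:133552159-133562885) was sparse everywhere. It was detected in 6 of 10 CD44Neg, 2 of 6 CD44LowKitNeg, 1 of 3 CD44LowKitPos and 3 of 3 CD44High libraries. Its highest level was 7.99 CPM, in CD44High replicate 21, and the CD44High mean was 4.2 ± 3.61 CPM (n = 3) against 2.09 ± 3.14 (n = 10) in CD44Neg. No comparison called it, by edgeR or under any alternative tried. At E11 the 3 CD44High libraries were at 0.79, 7.99 and 3.81 CPM and the 3 CD44LowKitNeg libraries at 0. With 3 counts per library as the floor for the zeros, the CD44High mean was at least 10-fold higher. That bound leaves out the spread between the CD44High libraries, and edgeR did not call the difference (adjusted p = 0.0537).

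*Bmper* (chr9:23223076-23485200) encodes a secreted protein with von Willebrand factor C domains that binds BMPs and can block or promote their action. All 6 CD44LowKitNeg libraries held it, at 16.3, 32.9 and 59.2 CPM as the lowest, median and highest. In CD44Neg 7 of 10 libraries were at 0 and the other 3, all at E9.5, were at 0.96, 4.55 and 9.61 CPM. No library overlapped, and the log2 fold change was 4.52 ± 1.06 (adjusted p = 0.00474). The call was lost by DESeq2's Wald test (adjusted p = 0.0137) and without CD44LowKitNeg replicate 11 (0.0113) or replicate 16 (0.0128), and with stage as a covariate the log2 fold change was 8.38. At both later stages the CD44Neg libraries were all at 0, so that CD44LowKitNeg was at least 59-fold higher at E11 (mean 36.3 CPM) and at least 70.5-fold higher at E10 (mean 45.7 CPM). The E11 difference was called (adjusted p = 0.00437) and the E10 difference was not called by edgeR (adjusted p = 0.0164). At E10 it was called in 5 of 28 alternative fits: by DESeq2's Wald test (8.77e-06), by limma voom (3.92e-05), without the low-count filter (2.78e-05), and without CD44Neg replicate 6 (0.00585) or CD44High replicate 22 (0.0092).

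Further along EHT, the CD44LowKitPos libraries were at 3.41, 7.47 and 7.09 CPM, below all 6 CD44LowKitNeg libraries in *Bmper*, though the difference was not called (log2 fold change -2.59 ± 1.58, adjusted p = 0.307). All 3 CD44High libraries were at 0. CD44High was at least 49-fold lower than CD44LowKitNeg over all stages (adjusted p = 0.0063) and at least 49.3-fold lower within E11 (adjusted p = 0.00107). The first of these calls was lost without CD44LowKitNeg replicate 11 or 16 (adjusted p = 0.0101 and 0.01) or without any 1 CD44High library (0.0279, 0.0254 and 0.0276 without replicates 20, 21 and 22). The E11 call on *Bmper* against CD44Neg was likewise lost without any 1 of 5 libraries, CD44Neg replicates 1 to 3 and CD44LowKitNeg replicates 11 and 13, with adjusted p between 0.0104 and 0.0216.

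**Figure D2:**
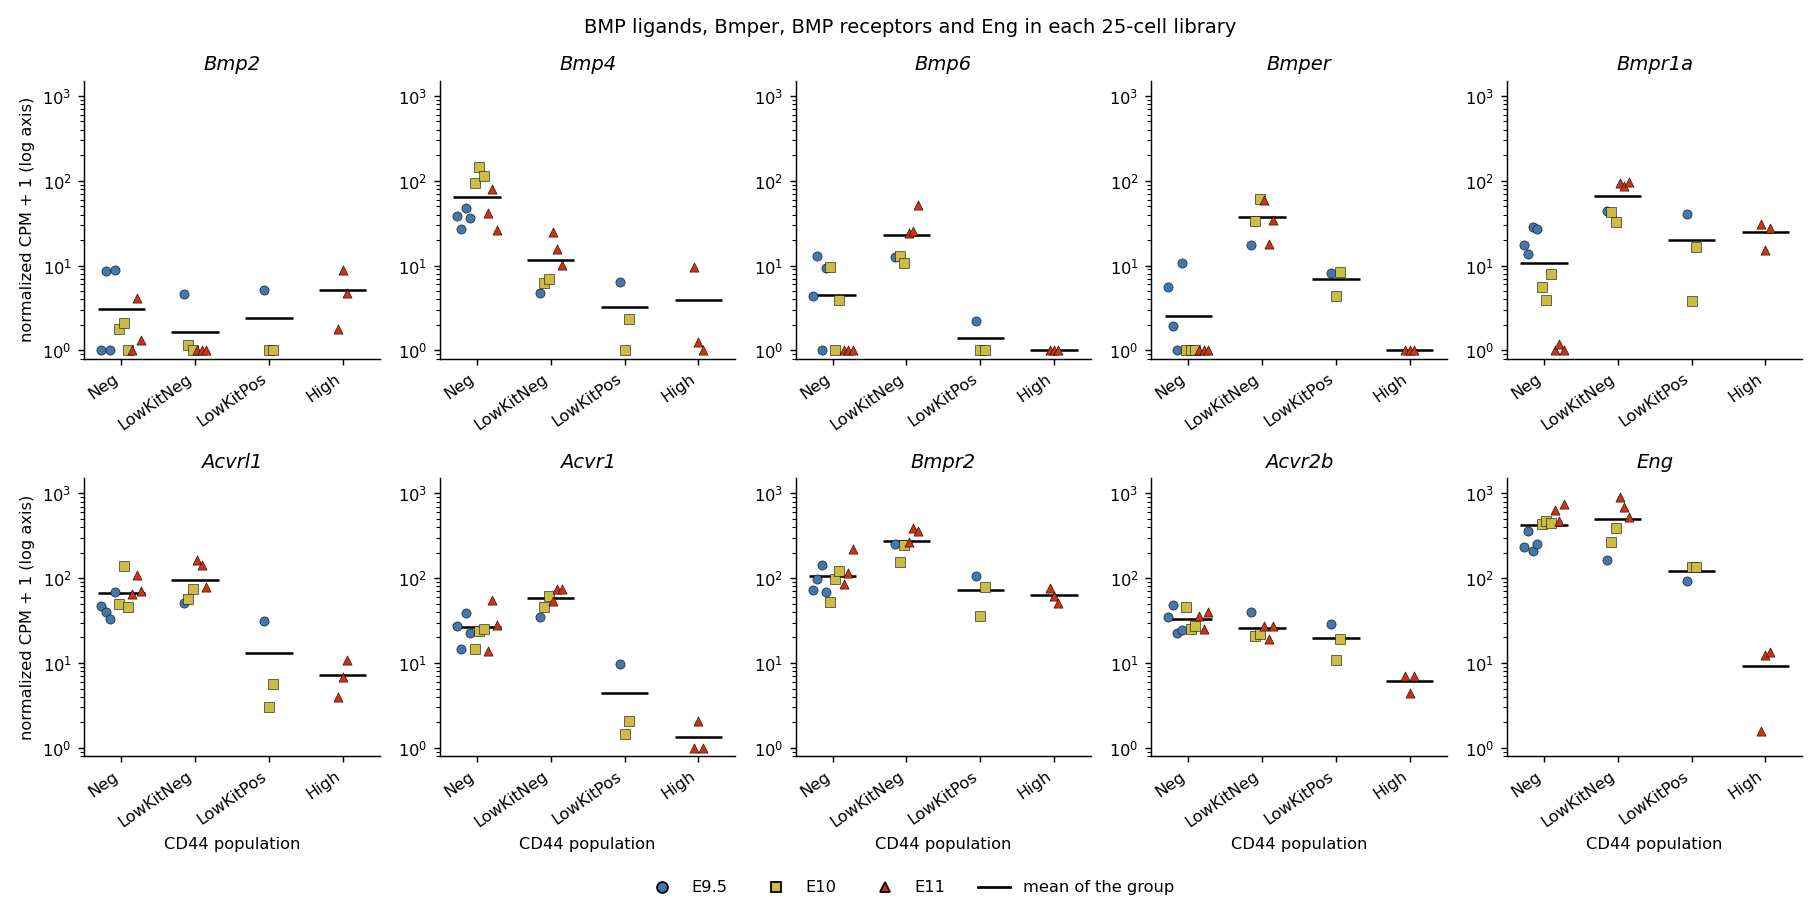
Normalized CPM + 1 (log axis) of the 10 genes in each of the 22 libraries, by CD44 population, with stage as colour and shape and the group mean as a line. *Bmper* and *Bmpr1a* stand highest in CD44LowKitNeg (means 36.1 and 65.6 CPM), *Bmp4* in CD44Neg (64.2 CPM), and *Eng* falls to 8.19 CPM in CD44High.

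Among the type I receptors, *Bmpr1a* (ALK3, chr14:34410734-34503341), the receptor of BMP2 and BMP4, had levels that went with both population and stage. The lowest, median and highest libraries were at 0, 5.77 and 27.7 CPM in CD44Neg and at 31.9, 64.9 and 95.7 CPM in CD44LowKitNeg, so that the populations did not overlap. Over all stages the log2 fold change of 2.75 ± 0.78 missed the threshold (adjusted p = 0.0161). It was called in 3 of 23 alternative fits, with stage as a covariate (4.74, adjusted p = 0.00198), by limma voom (4.32, adjusted p = 0.00217) and without CD44Neg replicate 6 (3.10, adjusted p = 0.00981).

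The spread within CD44Neg followed stage. At E9.5 the 4 libraries held 87, 53, 149 and 183 *Bmpr1a* counts (16.5, 12.6, 27.7 and 26.3 CPM). At E10 the 3 libraries held 23, 13 and 31 counts (4.62, 2.91 and 6.92 CPM), and at E11 they held 0, 1 and 0 counts (0, 0.20 and 0 CPM). The 3 stages did not overlap. *Bmpr1a* was lower at E11 than at E9.5 (adjusted p = 0.000309), 1 of the 6 genes called among 14609 tested, which is 0.0411% of them, and the sole 1 of the 10 genes described here that edgeR called. From the summed counts the E9.5 level was 333-fold that of E11 (exact binomial 95% interval 59.4 to 13171, counting error only). The call was just lost without CD44Neg replicate 1 (adjusted p = 0.0101). Over the same CD44Neg stages the summed level of 5 smooth muscle markers was 21 to 134, 4.7 to 106 and 0.31 to 2.92 CPM, and that of 6 epithelial and mesonephric markers 3.73 to 33.5, 0.80 to 6.71 and 0 to 2.14 CPM. The 6 neural markers summed to 56 to 80.2, 45.4 to 117 and 30.5 to 43.8 CPM, and the 8 endothelial markers to 3519 to 4297, 4909 to 5482 and 5662 to 5924 CPM. The 8 mesenchyme markers summed to 0 to 36.7, 0 to 2.81 and 0.465 to 17.2 CPM. The 8 macrophage markers summed to 4.74 to 11.8, 1.21 to 4.25 and 7.28 to 17 CPM. The 8 blood markers summed to 14.3 to 40.2, 6.69 to 12.3 and 5.84 to 23.8 CPM. The part of these lists in the stage difference was not tested.

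The CD44LowKitNeg libraries of the same stages all held *Bmpr1a*. They were at 43.1 CPM in the 1 library of E9.5, at 42.0 and 31.9 CPM at E10 and at 94.2, 86.7 and 95.7 CPM at E11, where the libraries held 701, 670 and 618 counts. E11 was above E10 in every library, as it was for *Bmp4*, *Bmp6*, *Acvrl1*, *Bmpr2* and *Eng*. The *Bmpr1a* difference was not called (log2 fold change 1.34 ± 0.65, adjusted p = 0.354). No gene of the 10 was called in that comparison by edgeR, against 0.363% of all genes, 1 had an unadjusted p under 0.05, and no other tool or setting called any. Within E11, CD44LowKitNeg exceeded CD44Neg 1414-fold from the summed counts of 1989 and 1 (exact binomial 95% interval 253 to 55876, counting error only). The interval leaves out the spread between libraries, which edgeR's test takes in (adjusted p = 2.55e-06). *Bmpr1a* and *Bmper* were the 2 genes of the 10 called at E11, against 2.89% of all genes. The *Bmpr1a* call held in all 28 alternative fits, including those without each library. At E10 the log2 fold change was 2.98 ± 0.64 (adjusted p = 0.0221), and none of the 10 genes was called by edgeR there, against 0.205% of all genes. Of the 10 genes 5 had an unadjusted p under 0.05 at E10. DESeq2's Wald test called 3, among 503 of all genes, and *Bmpr1a* was one of them (adjusted p = 0.000423).

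The *Bmpr1a* difference between the populations was larger at E11 than at E10 by 7.11 ± 1.18 on the log2 scale (E11 minus E10, interaction term), with an adjusted p of 0.0127. It missed the threshold, as did all 10 genes, against 0.0137% of all 14609 genes called. At an unadjusted p under 0.05 there were 3 of the 10 genes, and DESeq2, limma voom and edgeR without the low-count filter each called *Bmpr1a* alone, as did edgeR without CD44LowKitPos replicate 17 (adjusted p = 0.00842) or 18 (0.00897). The E11 date also covers CD44High, where *Bmpr1a* was at 30.1, 14.4 and 26.4 CPM.

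**Figure D3:**
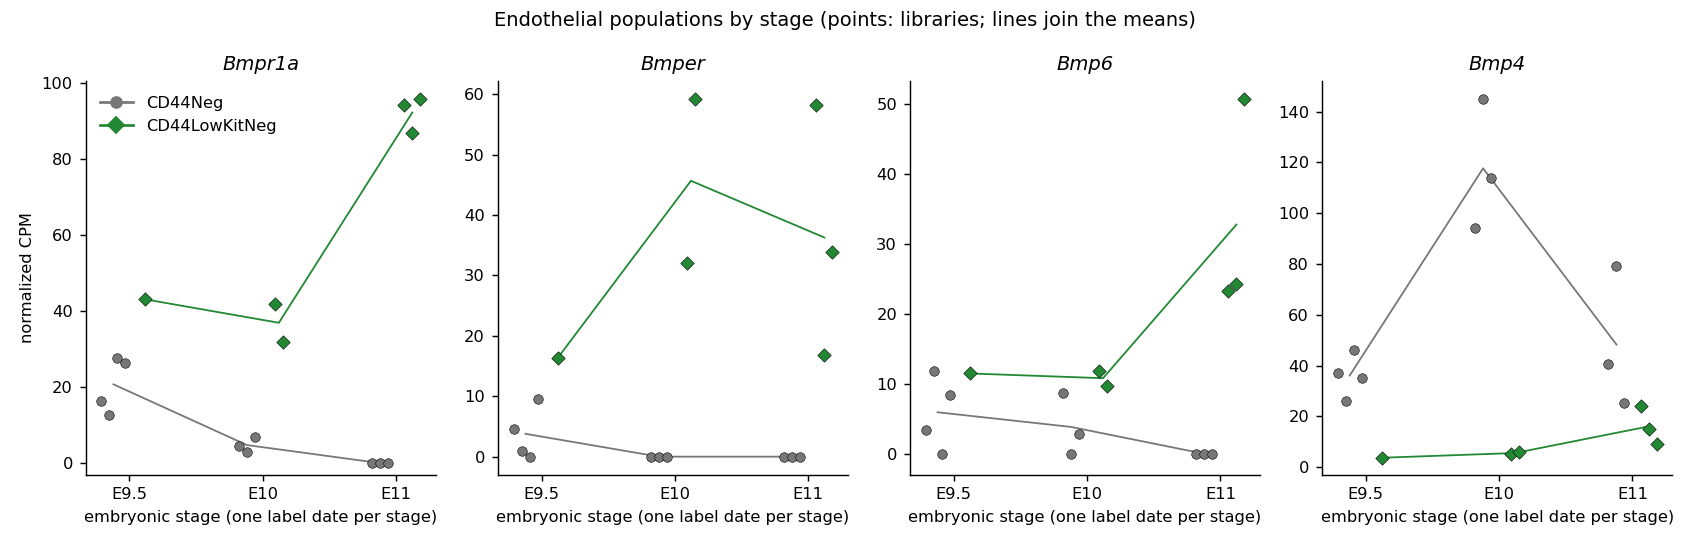
Normalized CPM of *Bmpr1a*, *Bmper*, *Bmp6* and *Bmp4* by embryonic stage in CD44Neg (grey) and CD44LowKitNeg (green), each point a library and lines joining the means. *Bmpr1a* goes from 12.6 to 27.7 CPM at E9.5 to at most 0.20 CPM at E11 in CD44Neg, while the E11 CD44LowKitNeg libraries lie at 86.7 to 95.7 CPM.

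In the populations further along EHT *Bmpr1a* was at 2.79 and 15.5 CPM (E10) and 39.3 CPM (E9.5) in CD44LowKitPos, and the 3 CD44High libraries lay within that range. Both means (19.2 ± 18.6 and 23.6 ± 8.21 CPM) were between those of CD44Neg (9.78 ± 10.6) and CD44LowKitNeg (65.6 ± 29.6). By edgeR no comparison involving these 2 populations called it. The closest was CD44High against CD44LowKitNeg within E11 (log2 fold change -2.07 ± 0.58, adjusted p = 0.011), where the libraries did not overlap. It was called there in 7 of 28 alternative fits: by DESeq2's Wald test (adjusted p = 0.00129), by limma voom (0.000573), with only the groups compared (0.00746), and without CD44Neg replicate 9 (0.00891) or 10 (0.00974) or CD44LowKitPos replicate 17 (0.00445) or 18 (0.00469).

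*Acvrl1* (ALK1, chr15:101128522-101145336), the type I receptor for BMP9 and BMP10, did not separate the endothelial populations. Its lowest, median and highest libraries were at 32, 56.8 and 140 CPM in CD44Neg and at 50.3, 76.2 and 164 CPM in CD44LowKitNeg (log2 fold change 0.52 ± 0.32, adjusted p = 0.288). It fell in CD44LowKitPos, to 2.02 and 4.67 CPM at E10 and 30.2 CPM at E9.5, and was at 2.97, 5.86 and 9.79 CPM in CD44High. Against CD44LowKitNeg the log2 fold change was -2.93 ± 0.69 (adjusted p = 0.00817) in CD44LowKitPos and -3.93 ± 0.75 (adjusted p = 0.00036) in CD44High. Against CD44Neg it was -3.42 ± 0.71 (adjusted p = 0.000862) in CD44High. Limma voom called neither CD44High difference (adjusted p = 0.0128 and 0.0352).

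*Acvr1* (ALK2, chr2:58388644-58567157), the receptor of BMP6 and BMP7, was lowest in the same populations. Its lowest, median and highest libraries were at 13, 23.7 and 54.7 CPM in CD44Neg and at 33.6, 57.3 and 73.7 CPM in CD44LowKitNeg. The log2 fold change of 1.16 ± 0.30 lay on the threshold (adjusted p = 0.0101). It was called in 7 of 23 alternative fits, with adjusted p between 0.00199 and 0.0902 over all 23. CD44LowKitPos was at 0.47 and 1.07 CPM at E10 and 8.74 CPM at E9.5, and of the 3 CD44High libraries 2 were at 0 and 1 at 1.07 CPM. Against CD44LowKitNeg *Acvr1* fell in CD44LowKitPos (log2 fold change -4.04 ± 0.83, adjusted p = 0.00347) and in CD44High (-7.33 ± 1.06, adjusted p = 1.66e-05). It also fell in CD44High against CD44Neg (-6.18 ± 1.01, adjusted p = 6.56e-05).

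Of the type II receptors, *Bmpr2* (chr1:59763400-59879014), the type II receptor that most selectively binds BMPs, rose in CD44LowKitNeg. Its libraries there were at 155, 258 and 385 CPM as the lowest, median and highest, and at 51.7, 96.9 and 219 CPM in CD44Neg. These overlapped only through CD44Neg replicate 3. The log2 fold change of 1.38 ± 0.26 (adjusted p = 0.000817) was called in all 23 alternative fits. CD44LowKitPos was at 34.7, 77.8 and 105 CPM and CD44High at 76.4, 60.2 and 50.3 CPM, near the CD44Neg levels. Against CD44LowKitNeg these were log2 fold changes of -1.93 ± 0.41 (adjusted p = 0.00472) and -2.15 ± 0.42 (adjusted p = 0.000475). Against CD44Neg neither was called (adjusted p = 0.426 and 0.145).

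*Acvr2b* (chr9:119402118-119434995), a type II receptor shared by activins and BMPs, overlapped between the other 3 populations and was low in CD44High. It was at 21.6, 30.3 and 47.5 CPM (lowest, median, highest) in CD44Neg, at 18.1, 23.4 and 38.6 CPM in CD44LowKitNeg, and at 9.93, 18 and 27.9 CPM in CD44LowKitPos. CD44High was at 5.94, 3.46 and 5.99 CPM, below every other library. The log2 fold change was -2.63 ± 0.44 against CD44Neg (adjusted p = 8.52e-05), -2.27 ± 0.44 against CD44LowKitNeg (adjusted p = 0.000478) and -1.85 ± 0.47 against CD44LowKitPos, the last of which edgeR did not call (adjusted p = 0.0172). That difference was called in 2 of 28 alternative fits, by DESeq2's Wald test (-1.79, adjusted p = 0.00297) and without CD44LowKitPos replicate 17 (-2.17, adjusted p = 0.00734). Limma voom called neither of the first 2 differences (adjusted p = 0.0116 and 0.0233). Between CD44LowKitNeg and CD44Neg it was -0.35 ± 0.27 (adjusted p = 0.391).

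*Eng* (chr2:32646595-32682669), the endoglin co-receptor of endothelium, had the highest level of the 10 genes in CD44Neg and CD44LowKitNeg, also per kilobase of exon (105 ± 42.7 and 122 ± 69.4 CPM per kb). Its lowest, median and highest libraries were at 206, 442 and 745 CPM in CD44Neg and at 161, 457 and 915 CPM in CD44LowKitNeg, with overlapping ranges (log2 fold change 0.23 ± 0.32, adjusted p = 0.688). CD44LowKitPos was at 136, 136 and 90.6 CPM, below every library of the endothelial populations, which edgeR did not call (adjusted p = 0.024 against CD44LowKitNeg and 0.0467 against CD44Neg). DESeq2's Wald test called both differences (0.000707 and 0.00309), and the first was called also without CD44High replicate 20 (0.00671). CD44High was at 0.59, 11.4 and 12.5 CPM. *Eng* was the 1 gene of the 10 called in CD44High against CD44LowKitPos, against 3.01% of all genes, with a log2 fold change of -3.91 ± 0.71 (adjusted p = 0.000765). These 2 populations share no stage or label date, so population and stage cannot be told apart in that comparison. Against CD44LowKitNeg it was -5.93 ± 0.75 (adjusted p = 2.6e-06) and against CD44Neg -5.72 ± 0.73 (adjusted p = 2.76e-06). Limma voom did not call the differences from CD44LowKitPos (adjusted p = 0.145) and CD44Neg (0.0107). Within CD44Neg all 3 E11 libraries (628, 469 and 745 CPM) were above all 4 at E9.5 (231, 355, 206 and 251 CPM), which edgeR did not call (log2 fold change 1.20 ± 0.41, adjusted p = 0.212). It was called in 3 of 28 alternative fits, by limma voom (0.00829), with only the groups compared (0.00982) and without CD44High replicate 20 (0.00899).

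The next comparisons asked which genes differed between the separately sorted CD44LowKitNeg, CD44LowKitPos and CD44High populations. Descent of one from another was not measured in these libraries. From CD44LowKitNeg to CD44LowKitPos 3 of the 10 genes fell (*Acvrl1*, *Acvr1* and *Bmpr2*) and none rose, against 4.26% of all 12949 genes, with a median log2 fold change of -2.12 over the 10 genes and -0.02 over all genes. All 3 calls were lost without CD44LowKitPos replicate 17 (adjusted p = 0.0582, 0.0308 and 0.0506) or replicate 18 (0.0505, 0.0229 and 0.0213), and with stage as a covariate only *Acvr1* was called. Of all genes, 65 were called without replicate 17 and 160 without replicate 18, against 552 with all libraries. The *Acvrl1* call was lost also without any 1 of 6 further libraries, CD44Neg replicates 1 and 7, CD44LowKitNeg replicates 11 to 13 and CD44High replicate 21, with adjusted p of at most 0.0156. Within E10, with 2 libraries on each side, *Acvrl1* (log2 fold change -4.28 ± 0.67, adjusted p = 0.000472) and *Acvr1* (-6.09 ± 0.99, adjusted p = 0.000688) were called, 2 of 10 against 1.96% of all genes. *Acvrl1* was no longer called there without CD44LowKitPos replicate 17 (adjusted p = 0.027), nor *Acvr1* without replicate 17 (0.0333) or 18 (0.0104), which left 86 and 187 of all genes called against 287. Neither was called with only the groups compared (0.0301 and 0.0226), and limma voom did not call *Acvrl1* (0.0268). Over all stages the 8 endothelial markers summed to 3723 to 8666 CPM in CD44LowKitNeg and 766 to 1854 CPM in CD44LowKitPos. The 8 blood markers summed to 8.36 to 302 and 453 to 1234 CPM, and the other lists reported here overlapped. The part of the marker lists in these calls was not tested.

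Against CD44Neg, CD44LowKitPos differed in 1 of the 10 genes (*Bmp4*), against 3.48% of all genes. *Acvrl1* and *Acvr1* were below all CD44Neg libraries (log2 fold change -2.43 ± 0.65, adjusted p = 0.0214, and -2.90 ± 0.75, adjusted p = 0.0174). Both were called without CD44LowKitPos replicate 19, the E9.5 library, with -4.29 (adjusted p = 0.000318) and -5.01 (adjusted p = 0.000553), so that 3 of the 10 genes were then called, with 630 of all genes against 451. DESeq2's Wald test called both as well (0.000434 and 6.84e-05), with 829 of all genes.

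In CD44High against CD44LowKitNeg 6 of the 10 genes fell (*Bmper*, *Acvrl1*, *Acvr1*, *Bmpr2*, *Acvr2b* and *Eng*), against 16% of all genes, and in CD44High against CD44Neg 5 fell (*Bmp4*, *Acvrl1*, *Acvr1*, *Acvr2b* and *Eng*), against 14.4%. Within E11, 7 of the 10 fell in CD44High against CD44LowKitNeg, the same 6 and *Bmp6*, against 16.2% of all genes. The *Bmp6* call was lost without CD44LowKitNeg replicate 13 (adjusted p = 0.0101) or any 1 CD44High library (0.0154, 0.0124 and 0.0129), and that of *Acvr2b* without CD44High replicate 21 (0.0131), by limma voom (0.0184) and with only the groups compared (0.0316). None of the 10 was called higher in CD44High in these comparisons. In bulk samples a lower number of expressing cells and less RNA in each cell cannot be told apart. CD44High also carried macrophage transcripts: the summed level of 8 macrophage markers was 1405 to 3826 CPM there, with none of the 8 at 0, against 17.7 to 22.3 CPM in CD44LowKitPos, 0 to 40.2 in CD44LowKitNeg and 1.21 to 17 in CD44Neg. *C1qa*, *C1qb*, *C1qc* and *Adgre1* were at 0 in every library of those 3 populations. The summed epithelial and mesonephric markers were at 4.35 to 23.8 CPM in CD44High and 68.4 to 81.4 CPM in CD44LowKitPos. The ranges of the same populations overlapped for the smooth muscle (0 to 702 and 147 to 294 CPM), mesenchyme (0.27 to 227 and 0.155 to 16.3) and blood markers (974 to 1719 and 453 to 1234). The blood markers lay above CD44LowKitNeg (8.36 to 302 CPM) and CD44Neg (5.84 to 40.2 CPM). The epithelial and mesonephric markers lay below CD44LowKitNeg (26.5 to 87.2 CPM) and overlapped CD44Neg (0 to 33.5 CPM). The smooth muscle and mesenchyme markers overlapped both. The part of any of these lists in the differences was not tested.

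Some other marker lists also moved with CD44LowKitNeg. The summed level of 5 smooth muscle markers was 94 to 354 CPM there and 0.31 to 134 CPM in CD44Neg, with *Myh11* at 0 in all CD44LowKitNeg libraries. That of 8 mesenchyme markers was 4.19 to 99.1 and 0 to 36.7 CPM, with *Col1a1* at 0 in both populations. That of 6 epithelial and mesonephric markers was 26.5 to 87.2 and 0 to 33.5 CPM, with *Epcam* and *Pax2* at 0 in CD44LowKitNeg. That of 8 blood markers was 8.36 to 302 and 5.84 to 40.2 CPM, with *Ptprc* at 0 in CD44Neg. At E11 the blood sums overlapped, at 8.36 to 16.1 CPM in CD44LowKitNeg and 5.84 to 23.8 CPM in CD44Neg. The neural list was lower in CD44LowKitNeg, where its 6 markers summed to 6.99 to 23 CPM with *Sox2*, *Sox10*, *Elavl3* and *Pax6* at 0, against 30.5 to 117 CPM in CD44Neg with *Sox10* and *Elavl3* at 0. The part of these lists in the differences was not tested.

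The make-up of the receptors was computed per length. Per kilobase of exon, the 5 kinase receptors summed to 36.4 ± 8 CPM per kb in CD44Neg, 65.8 ± 19.5 in CD44LowKitNeg, 15.4 ± 11.5 in CD44LowKitPos and 10.0 ± 1.69 in CD44High. Of the 3 type I receptors, *Bmpr1a* made up 7.97% ± 8.17 in CD44Neg, 23.3% ± 5.53 in CD44LowKitNeg, 49.9% ± 13.1 in CD44LowKitPos and 70.1% ± 15.1 in CD44High, whose libraries are all of E11. By stage its CD44Neg share went from 16.8% (E9.5) through 4.22% (E10) to 0.028% (E11). *Acvrl1* went from 67.9% ± 14 in CD44Neg to 48.6% ± 7.64, 41% ± 10.2 and 28% ± 13.2 in the same order. *Acvr1* held 24.1% ± 8.47 and 28.1% ± 6.80 in the endothelial populations and 9.15% ± 3.08 and 1.91% ± 3.30 in the other two. Of the 2 type II receptors, *Bmpr2* made up 41.8% ± 12.5 in CD44Neg, 70.0% ± 8.36 in CD44LowKitNeg, 45.7% ± 2.65 in CD44LowKitPos and 72.6% ± 7.28 in CD44High. These shares are descriptions (SD over libraries, n = 10, 6, 3 and 3) that depend on the exon lengths, which came from GENCODE and not from the authors, and they were not tested.

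**Figure D4:**
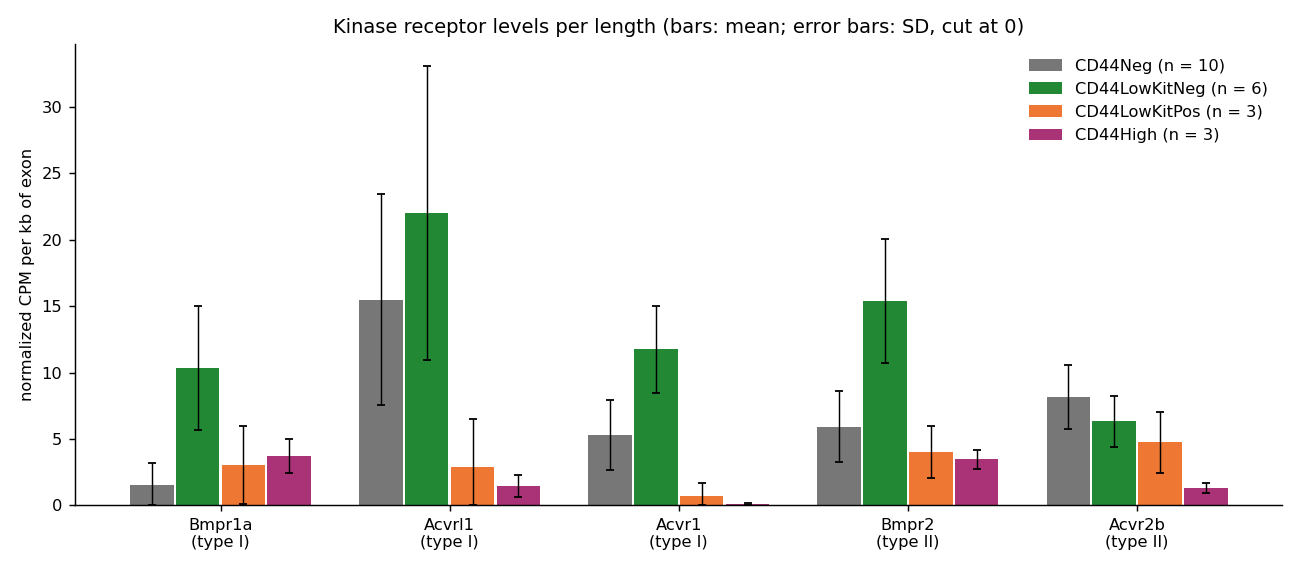
Level of the 5 kinase receptors in normalized CPM per kilobase of exon (vertical axis), by CD44 population, as means with SD. *Acvrl1* is highest in both endothelial populations (15.5 and 22 CPM per kb), and *Bmpr1a* and *Bmpr2* are the highest receptors in CD44High (3.72 and 3.47 CPM per kb).

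Other genes of the pathway were counted in 4 lists that leave out the 10 genes, chosen with earlier results of these data known. In CD44LowKitNeg against CD44Neg, none of 19 other BMP-class ligands passed the filter on low counts. The list of other receptors held 13 symbols, among them RGM co-receptors and neogenin (*Neo1*), and 12 were found. Of these 6 were tested and none was called by edgeR, the sole tool run on these lists, with 3 at an unadjusted p under 0.05. Of 20 secreted and membrane modulators 9 were tested, 4 rose and none fell, with a median log2 fold change of 1.73. Of 13 transducers and targets 10 were tested, 5 rose and none fell, with a median of 0.90. Both medians stand beside 0.01 over all genes, and 10.2% of all genes were called.

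The 4 modulators that rose are all known to bind BMPs or their receptors, or to lie close to BMP signalling. *Twsg1*, a BMP-binding partner of chordin, was at 6.70, 19.8 and 29.3 CPM (lowest, median, highest) in CD44Neg and at 41.9, 57.6 and 93.7 CPM in CD44LowKitNeg, with no overlap (log2 fold change 1.74, adjusted p = 0.000653). *Crim1*, a transmembrane protein with BMP-binding domains, was at 0.75, 11 and 14.9 and at 22, 25.3 and 44.5 CPM (1.76, adjusted p = 0.00889). *Fstl1*, a follistatin-like secreted protein, was at 235, 462 and 590 and at 816, 1371 and 2300 CPM (1.73, adjusted p = 6.23e-05). *Sost*, which encodes sclerostin, an inhibitor better known in WNT signalling, was at 0.38, 2.29 and 9.85 and at 8.12, 17.2 and 24.9 CPM (2.50, adjusted p = 0.00589).

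The 5 targets that rose were the inhibitory SMADs *Smad6* and *Smad7* and the ID genes *Id1*, *Id2* and *Id3*, with log2 fold changes from 0.75 (*Id3*, adjusted p = 0.00403) to 3.10 (*Smad6*, adjusted p = 0.00026). The *Id1* libraries were at 46.8, 147 and 239 CPM in CD44Neg and at 304, 330 and 365 CPM in CD44LowKitNeg, so they did not overlap. From CD44LowKitNeg to CD44LowKitPos 1 of 8 tested receptors, 1 of 10 modulators and 1 of 12 transducers and targets fell, against 4.26% of all genes called. In CD44High against CD44LowKitNeg these were 1 of 8, 5 of 10 and 6 of 12, against 16% of all genes, and no gene of the 4 lists rose in either comparison. In CD44LowKitPos against CD44Neg 1 of 12 transducers and targets fell, against 3.48% of all genes. In CD44High against CD44LowKitPos 1 of 10 modulators and 1 of 12 transducers and targets fell, against 3.01%. In CD44High against CD44Neg 1 of 2 other ligands rose while 5 modulators and 2 transducers and targets fell, against 14.4%.

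Genes with the most similar pattern were ranked by Pearson's r over the 9 population-by-stage means of log2 CPM, among 12949 genes. The means share libraries of 1 population and stage, and these r values are descriptions. *Bmp4* was nearest to *Myo1c* (0.981), *Pcdh12* and *Palm* (both 0.971), *Bmp6* to *Sec63* (0.967), *Isl1* (0.957) and *Palld* (0.953), and *Bmp2* to *Ltc4s* (0.942), *C330024D21Rik* (0.934) and *Kif14* (0.925). *Bmper* was nearest to *Snhg14* (0.976), *Tmem221* (0.973) and *Cytl1* (0.961). Of the type I receptors, *Bmpr1a* was nearest to *Cxcl16* (0.93), *Jak2* (0.925) and *Pde3b* (0.922), *Acvrl1* to *Nfib* (0.997), *Igfbp3* (0.988) and *Hip1* (0.985), and *Acvr1* to *Grk5* (0.997), *Zfp532* (0.988) and *Nhsl2* (0.987). *Bmpr2* was nearest to *Dst* (0.978), *Prdx4* (0.977) and *Tspan13* (0.973), *Acvr2b* to *Fermt2* (0.981), *Ppp1r16b* (0.978) and *Cnn3* (0.975), and *Eng* to *Fkbp10* (0.997), *Npdc1* (0.987) and *Zbed3* (0.98). No member of the 10 was among the 3 nearest genes of another.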

How the data were processed

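Bulk RNA-seq of sorted AGM cells was analysed. The authors made SMART-Seq2 cDNA, trimmed adaptors with the FASTX tools, aligned with RNA STAR and deposited raw htseq-count counts per gene symbol. Per the labels the build was mm10, and FastQC and HTSeq were used. Versions, annotation and strand setting are not given in the sources used here, so reads of a gene and of an overlapping gene on the other strand (such as *Eng* and *Fpgs*, or *Bmp6* and *Txndc5*) may not have been told apart.

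The 10 genes and the lists were chosen with earlier results of these data known. edgeR 4.0.16 (R 4.3.3) was used with filterByExpr (minimum count of 10, minimum total of 15), TMM scaling and the quasi-likelihood test. CD44LowKitNeg was compared with CD44Neg over 16 libraries, the other populations in 1 fit of 22, and stages in 1 fit of 9 population-by-stage groups. Named from the wider lists were the genes called in the first comparison. Alternatives used DESeq2 1.42.0 and limma 3.58.1. Standard errors come from the quasi-likelihood F statistic. Gene positions and exon lengths came from GENCODE M21, promoters from RefSeq. Replicate numbers are not shared between groups. The authors' single-cell data were not analysed here. 1 marker list is not reported here.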

Additional observations from a re-analysis of the deposited data

Results flagged for a closer look

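A library far from the others of its group was looked for among 10 genes in CD44Neg (10 libraries), CD44LowKitNeg (6 libraries) and CD44Neg at E9.5 (4 libraries), by Dixon's test. Of 30 groups tested 3 were flagged. The usual chance rate of about 1 in 20 assumes normally spread values in separate groups. Here many values were 0, stages were pooled, and the E9.5 libraries also counted within CD44Neg. The chance rate for these groups is therefore not known. *Bmp2* in CD44LowKitNeg replicate 14, the E9.5 library, was at 3.59 CPM, and the other 5 libraries were at 0 to 0.168 CPM. *Bmp6* in CD44LowKitNeg replicate 13 was at 50.8 CPM against 9.74 to 24.3 CPM in the others. *Bmper* in CD44Neg replicate 7, an E9.5 library, was at 9.61 CPM against 0 to 4.55 CPM in the others.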

How the results depend on the processing

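The number of the 10 genes called was recomputed under each alternative and is given with the number of all genes called, and edgeR's own number of all genes in brackets. In CD44LowKitNeg against CD44Neg (1121), limma voom called 6 (1370 of all genes) and a threshold of 0.05 gave 5 (2217). In CD44LowKitPos against CD44LowKitNeg (552), DESeq2's Wald test called 5 (1265) and stage as a covariate left 1 (366). In CD44LowKitPos against CD44Neg (451), limma voom called 0 (729), the Wald test 4 (829) and a threshold of 0.05 4 (941), and stage as a covariate left 0 (377). In CD44High against CD44LowKitPos (390), limma voom called 0 (485), the Wald test 2 (716) and a threshold of 0.05 2 (784). In CD44High against CD44Neg (1864), limma voom called 2 (1801). Within E11, CD44LowKitNeg against CD44Neg (422) gave 4 without the filter (771). Within E10 it (30) gave 1 by limma voom (257), 3 by the Wald test (503), 3 without the filter (387) and 2 at a threshold of 0.05 (321). In CD44LowKitPos against CD44LowKitNeg at E10 (287), the Wald test called 4 (833) and only the groups compared gave 0 (8). Between E11 and E9.5 of CD44Neg (6), limma voom called 2 (93), the Wald test 3 (180), no filter 2 (101) and only the groups compared 2 (79). For the dependence on stage (2), limma voom (16), the Wald test (53), no filter (64) and a threshold of 0.05 (20) each called 1. Stage as a covariate turned *Eng* in CD44LowKitNeg against CD44Neg to a log2 fold change of -0.21. Except where fewer libraries were fitted, the cause was not tested.

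Leaving out each library in turn gave 2 to 5 in CD44LowKitNeg against CD44Neg (875 to 1222 of all genes, 5 genes without CD44Neg replicate 6), 0 to 4 in CD44LowKitPos against CD44LowKitNeg (65 to 687), 0 to 3 in CD44LowKitPos against CD44Neg (159 to 630), 1 to 2 in CD44High against CD44LowKitPos (251 to 408, 2 genes without CD44LowKitPos replicate 17), 5 to 6 in CD44High against CD44LowKitNeg (1334 to 2176), 4 to 5 in CD44High against CD44Neg (1340 to 1889), 1 to 3 at E11 (194 to 520), 0 to 1 at E10 (7 to 115), 0 to 2 in CD44LowKitPos against CD44LowKitNeg at E10 (86 to 393), 5 to 8 in CD44High against CD44LowKitNeg at E11 (1927 to 2387), 0 to 2 between E11 and E9.5 of CD44Neg (0 to 30, 0 genes without CD44Neg replicate 1, 2 without CD44High replicate 20) and 0 to 1 for the dependence on stage (1 to 12). The *Eng* fold change in CD44LowKitNeg against CD44Neg then lay between -0.048 (without CD44LowKitNeg replicate 11) and 0.43. A fit that leaves 1 library in a group takes its spread from the other groups. Scaling by DESeq2's size factors or leaving out *Rn45s* moved no count of the 10 genes by over 1.5 times, and DESeq2's scaling moved none of the mean levels of the 10 genes in the 4 populations by over 1 SD.

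No paired analysis was possible because no replicate number is shared between groups. Label dates are shared between groups, 1 per stage, and entered as the stage covariate. With 25 cells and amplified cDNA per library, a count of 0 may be a loss in amplification, and 3 libraries a group limit the CD44LowKitPos and CD44High comparisons.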
